A study of Mus musculus with 10 samples.

Results

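A set of 10 genes of the AP-1 family and of the early response to stimulation were followed, cell class by cell class, in droplet-based transcriptomes of mouse small-intestinal organoids and of crypts of the colon. The members were the Fos family genes Fos, Fosb, Fosl1 and Fosl2, the Jun family genes Jun, Junb and Jund, and the transcription factor genes Atf3, Egr1 and Ier2, out of 31053 genes counted. They were chosen by name, and their unique molecular identifier (UMI) counts, each standing for 1 captured transcript, were summed over the cells of each class and library. All 10 were found, with 1961425 UMIs in the 25204 cells that the authors kept.

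The organoids grew in Matrigel from crypts of the proximal small intestine. ENR-organoids (3 libraries) were fed with Noggin, EGF and R-Spondin 1. Hyper-organoids (3 libraries) received EGF, R-Spondin 1 conditioned medium, FGF2, LDN193189 (a BMP receptor inhibitor), GSK-3 Inhibitor XV, Pexmetinib (an inhibitor of p38 MAP kinase and TIE2), VPA (a histone deacetylase inhibitor) and EPZ6438 (an EZH2 inhibitor), and -VE-organoids (2 libraries) received that mixture without VPA and EPZ6438. The codes that open the titles fall into 3 sets, by a 2, a 6 or a C, which are called culture series 2, 6 and C and numbered 1, 2 and 3 here. No label says what this part of the code marks, so that reading it as a culture series is an assumption. ENR-organoids were at passage 2, 7 and 3, -VE-organoids at passage 1 and 6, and Hyper-organoids at passage 1, 6 and 3. In series C both the ENR- and the Hyper-organoids were started from primary crypts, whereas the other Hyper- and both -VE-organoids were derived from ENR-organoids. The remaining 2 libraries held colonic crypts, 1 from normal mice and 1 from mice given dextran sulfate sodium (DSS), which injures the colonic epithelium. The labels give neither the strain, sex or age of the animals nor how many were pooled.

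AP-1 is a dimer of basic leucine zipper proteins. Jun proteins pair with each other or with Fos proteins, which do not pair among themselves, and the dimer binds the TRE sequence TGACTCA or the related CRE sequence TGACGTCA. Atf3 encodes a stress-induced protein of the same structural kind that often represses, Egr1 a zinc finger factor, and Ier2 a nuclear protein induced early by growth factors. Growth factors and stress switch most of these genes on within minutes through MAP kinases, without new protein synthesis, and their mRNAs are short-lived. Enzymatic and mechanical dissociation of a tissue induces them as well, so media were compared within a cell class. The sources used here give dissociation with TrypLE at 37 °C for Hyper- and ENR-organoids and do not name -VE-organoids there.

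Summed counts do not tell fewer expressing cells from less RNA in each cell. The organoid libraries held 89124015 to 170019527 UMIs in 1983 to 4293 kept cells. Cells were taken in the classes of the deposited annotation. The marker genes of the transit amplifying (TA), goblet and enteroendocrine labels were highest in their own class in 8 of 8 libraries, and those of the enterocyte label in 7 of 7. Only these classes and the stem class were compared, not Paneth cells, enterocyte progenitors or revival stem cells. The paper annotated its clusters by marker genes that include the stem markers below, so agreement is partly built in. Markers of the stem label (Lgr5, Ascl2, Olfm4, Cd44) were highest in the stem class in 5 of 8 libraries and in none of the 3 Hyper-organoid libraries, so that class is called stem-labelled. Its markers summed to 268 to 923 CPM (counts scaled to the same total in every library) in Hyper-organoids, 1958 to 2664 CPM in -VE-organoids and 3157 to 4560 CPM in ENR-organoids. Among the kept cells, 79 barcodes occurred in more than 1 library.

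Promoter sequences are shown for Fos, Jun and Atf3, because each held a CRE-like sequence close to its start and because calls between media described below included Fos and Atf3. The 120 bases before the RefSeq start are given in GRCm38.p6, 5′ to 3′ on the gene's strand, with the match in capitals.

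Fos, chr12:85473770-85473889, plus strand: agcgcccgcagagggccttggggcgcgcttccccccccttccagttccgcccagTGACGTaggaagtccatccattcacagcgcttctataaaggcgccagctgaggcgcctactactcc
Jun, chr4:95052223-95052342, minus strand: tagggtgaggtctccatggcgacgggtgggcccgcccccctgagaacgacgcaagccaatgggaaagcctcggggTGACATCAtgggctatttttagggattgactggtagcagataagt
Atf3, chr1:191183334-191183453, minus strand: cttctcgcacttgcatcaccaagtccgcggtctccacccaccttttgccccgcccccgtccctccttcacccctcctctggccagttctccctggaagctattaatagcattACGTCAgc

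In Fos the capitals mark TGACGT, the first bases of the CRE, at -66 to -61 from the start. In Jun they mark TGACATCA, which differs from the CRE by 1 base, at -45 to -38. In Atf3 they mark ACGTCA, which is TGACGT on the other strand, at -8 to -3. The search covered both strands of the 250 bases before each start for the TRE, the CRE, its first bases TGACGT (which the whole CRE contains), the variant found in Jun, and the CArG box bound by serum response factor. Of 32544 mouse promoters searched in the same way, 4.46% held the TRE, 1.55% the CRE, 6.50% its first bases, 2.84% the Jun variant and 1.48% a CArG box. Fosb, Fosl2, Junb and Jund held none of these letters in that window. In the GENCODE annotation of GRCm38 the gene Fos spans 85473890 to 85477273 on chromosome 12, Jun 95049034 to 95052222 on chromosome 4, and Atf3 191170296 to 191218039 on chromosome 1, so the Atf3 window starts from a RefSeq start inside the annotated gene. Fosl1, Jun, Junb, Jund and Atf3 overlap a gene on the other strand (Ccdc85b, Junos, Prdx2, Gm11175 and Gm24748), and whether the counting used strand is not given in the sources used here.

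The members were not evenly expressed over the epithelium, and the order of the classes differed between media. The levels below are in CPM of all UMIs of a class and library, classes were themselves clustered on expression, and these levels are a description with no test. In ENR-organoids Fos stood at 175 ± 44.3 CPM (SD, n = 3) in stem-labelled cells, 201 ± 30.9 in TA cells, 289 ± 75.0 in enterocyte progenitors, 314 ± 24.3 in goblet cells, 425 ± 100 in enteroendocrine cells, 463 ± 126 in Paneth cells and 560 ± 137 in enterocytes. Neighbours in this order lay within or close to one another's spread, whereas stem-labelled cells and enterocytes did not. In Hyper-organoids, Fos stood at 154 ± 76.4 CPM (n = 3) in enteroendocrine cells, below its 244 ± 74.5 CPM in stem-labelled and 224 ± 78.9 CPM in TA cells. Goblet cells were the lowest class for Jun and Junb in 4 of 8 libraries and for Fos, Atf3 and Ier2 in 3. Other classes were lowest too: TA cells for Atf3 in 4, stem-labelled cells for Fos and Jun in 3, and Paneth cells for Ier2 in 3. Only classes with at least 20 cells in a library were ranked, and revival stem cells were left out. Paneth cells and enterocyte progenitors therefore entered in no Hyper library, and enterocytes did not enter in Hyper 1. In ENR-organoids Atf3 stood at 22.3 ± 6.77 CPM in stem-labelled cells, 24.4 ± 2.75 in TA cells, 40.0 ± 11.7 in enterocyte progenitors, 65.5 ± 33.9 in goblet cells, 141 ± 13.0 in Paneth cells, 149 ± 86.7 in enteroendocrine cells and 215 ± 18.6 in enterocytes. Its order differed from that of Fos in Paneth and enteroendocrine cells, which lay within the spread of the latter. The step from Paneth cells to enterocytes exceeded the spread, and the step from stem-labelled to TA cells did not.

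Of the members, 9 were higher in enterocytes than in stem-labelled cells in 7 of 7 libraries with at least 20 enterocytes, and Fosl1 in 6 of 7. The share of all genes with that order was not counted, so it is not shown to be particular to the members. The median ratio over those libraries was 5.57 for Atf3 (2.94 to 14.4), 4.52 for Fosb, 2.87 for Egr1, 2.78 for Fos, 2.61 for Junb, 2.48 for Jun, 2.32 for Fosl2, 1.73 for Jund and 1.35 for Ier2 (1.01 to 1.48). Egr1 was highest in enteroendocrine cells in 7 of 8 libraries and Jund in 6, Fosl2 was highest in enterocytes in 7 and Fos in 6. These counts took only classes with at least 20 cells, so enterocytes could not be highest in Hyper 1. Fosl1, which encodes the Fos-related protein FRA1, was close to the limit of detection, at 0.604 ± 0.556 CPM in stem-labelled cells of ENR-organoids. It was higher in the few cells labelled revival stem, at 30.5 and 16.3 CPM in the -VE libraries (8 and 17 cells) and 15, 7.52 and 7.28 CPM in the Hyper libraries (5, 14 and 26 cells), and no cell of ENR-organoids carried that label. The class reached the minimum of 20 cells in 1 library only and was not tested.

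**Figure D1:**
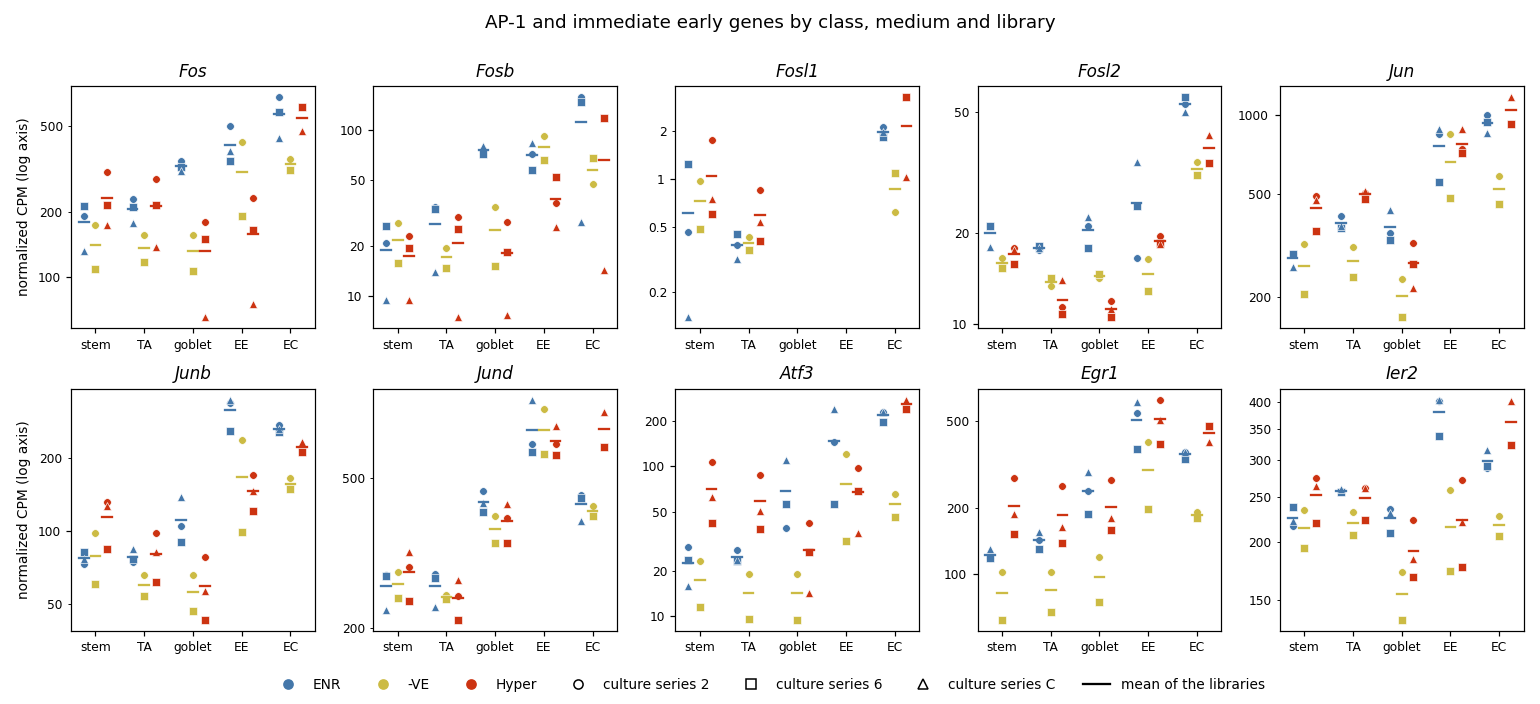
Level of the members (CPM, log axis) by cell class, with 1 point for each library and colours for the 3 media, marker shapes for the culture series and a dash for the mean of the libraries. Fos, Atf3 and Egr1 sit higher in enterocytes than in stem-labelled cells in every library that has at least 20 enterocytes, and the ENR points lie above the Hyper points for Fos and Fosb in goblet cells.

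The first question was what the 8-component medium did to these genes against the conventional one. In stem-labelled cells, Atf3 rose and the other members did not pass both thresholds. Atf3 measured 28.8, 23.6 and 16.0 CPM in the ENR libraries and 107, 42.1 and 62.4 CPM in the Hyper libraries. Every Hyper library lay above every ENR library, and the Hyper libraries spread widely among themselves. The log2 difference was 1.60 ± 0.37 (SE, adjusted p = 0.00608, edgeR quasi-likelihood test with Benjamini-Hochberg adjustment over the 13920 genes tested in this class). The same test, adjusted over the genes tested in each fit, gave every adjusted p below unless another tool is named. A call needed an adjusted p under 0.05 and at least a 2-fold difference, which is 1 on the log2 scale. Thus 1 of 10 members rose and none fell, beside 15.2% of all tested genes that rose and 2.8% that fell, and 18% called in either direction. The median log2 difference was 0.46 over the members and 0.00023 over all tested genes, and 8 of the 10 members had a positive value.

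Egr1, Jun and Junb passed the adjusted p in stem-labelled cells but stayed under 2-fold. Egr1 stood at 119, 118 and 130 CPM in ENR libraries and at 276, 152 and 189 CPM in Hyper libraries, with a log2 difference of 0.75 ± 0.22 (adjusted p = 0.0192). Jun stood at 294, 294 and 261 CPM against 490, 358 and 473 CPM, a difference of 0.64 ± 0.16 (adjusted p = 0.00966). The groups did not overlap for either gene. Junb, the Jun protein that opposes Jun at many promoters, had 72.9, 82.1 and 76.4 CPM against 131, 84.0 and 127 CPM, with 0.56 ± 0.20 (adjusted p = 0.0395). These 4 members of 10 passed the adjusted p at any fold, beside 49.5% of all tested genes. Fos, at 192, 213 and 132 CPM against 306, 215 and 174 CPM, overlapped between the media, with 0.37 ± 0.24 (adjusted p = 0.242). Fosb overlapped too, at 20.8, 26.4 and 9.45 CPM against 23, 19.4 and 9.47 CPM. Jund, Ier2 and Fosl2, at 223 to 320, 217 to 275 and 15.8 to 21.1 CPM over the 6 libraries, differed by 0.12 ± 0.12, 0.16 ± 0.10 and -0.24 ± 0.09 and missed the adjusted p.

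Values that moved with the medium in the stem-labelled class include the stem markers given above and those of 3 other epithelial cell types. Of the stem markers, 2 of 4 were higher and 2 of 4 lower in every Hyper library. General epithelial markers summed to 3645 to 4481 CPM in Hyper against 3374.5 to 3448 CPM in ENR libraries (4 of 5 higher). Enterocyte progenitor markers summed to 318 to 491 CPM in Hyper against 785 to 951 CPM in ENR libraries (4 of 4 lower), Paneth markers to 9.52 to 32.7 against 98.8 to 112 CPM (3 of 4 lower), and revival stem markers to 33.0 to 127 against 1.14 to 1.63 CPM (4 of 4 higher). The median mitochondrial share of UMIs was 8.18% to 9.55% in ENR and 8.55% to 10.3% in Hyper libraries. Leukocyte markers summed to 5.93 to 7.58 CPM in Hyper and 7.98 to 10.6 CPM in ENR libraries, with Ptprc, S100a8 and S100a9 at 0, and stromal and endothelial markers to 0.965 to 1.87 CPM against 0.0775 to 0.405 CPM, with Col3a1 and Col1a2 at 0. The summed heat shock and chaperone genes were lower in Hyper libraries with no overlap, at 9315 to 9880 CPM against 10073 to 10349 CPM. Of these 15 genes 1 was called in this class, Hspb1, which rose (4.88, adjusted p = 3.93e-05), beside 18% of all tested genes called. The part of the marker shift, the mitochondrial share and the heat shock and chaperone genes in the Atf3 difference was not tested.

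In TA cells, the dividing progeny of stem cells, Atf3 was again called. Atf3 measured 27.7, 23.4 and 23.9 CPM in ENR and 87.6, 38.2 and 50.1 CPM in Hyper libraries, and it rose by 1.23 ± 0.32 on the log2 scale (adjusted p = 0.011). Without Hyper 1 the difference was 0.83, under 2-fold (adjusted p = 0.0201). It was the 1 member called of 10, beside 20.9% of the tested genes called in either direction, 17.2% higher and 3.78% lower. Egr1 had 144, 129 and 156 CPM against 254, 138 and 164 CPM, so that Hyper 2 lay within the ENR range. Under 2-fold, Jun passed the adjusted p higher, at 409, 370 and 377 CPM in ENR and 501, 477 and 513 CPM in Hyper libraries (0.37 ± 0.09, adjusted p = 0.00951), and Fosl2 lower, at 17.6, 18.2 and 17.9 CPM against 11.4, 10.8 and 13.99 CPM (-0.57 ± 0.10, adjusted p = 0.00125), both with no overlap. In this class, stem markers summed to 283 to 952 CPM in Hyper against 1784 to 2659 CPM in ENR libraries (2 of 4 higher, 2 of 4 lower), enterocyte progenitor markers to 287 to 407 against 1013 to 1158 CPM (4 of 4 lower), Paneth markers to 8.40 to 32.1 against 84.1 to 91.9 CPM (3 of 4 lower) and revival stem markers to 21.7 to 108 against 0.679 to 3.55 CPM (4 of 4 higher). The mitochondrial share was 8.08% to 9.64% against 7.64% to 8.69%. Their part in the Atf3 difference was not tested.

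In goblet cells, which secrete mucus, Fos, Fosb and Atf3 fell between the same media. Of these 3, only Atf3 had been called higher in stem-labelled cells. Fos measured 346, 324 and 308 CPM in ENR libraries and 179, 150 and 64.9 CPM in Hyper libraries. Fosb, which encodes a slower-decaying Fos protein, measured 75.6, 71.1 and 80.1 CPM against 28.0, 18.3 and 7.64 CPM. The ENR libraries lay close together for both genes, every Hyper library lay below them, and Hyper 3 was the lowest. Fos fell by 1.31 ± 0.27 on the log2 scale (adjusted p = 0.00362) and Fosb by 2.03 ± 0.34 (adjusted p = 0.000988). Without Hyper 3, Fos fell by 0.98, just under 2-fold (adjusted p = 0.00103), whereas Fosb was called in all 11 alternatives tried. Thus 3 of 9 tested members fell and none rose, beside 2.64% of all tested genes that fell and 10.7% that rose, 13.3% called in either direction. Fosl1 did not pass the filter on low counts in goblet or enteroendocrine cells.

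Atf3 was less even in goblet cells, at 38.9, 56.1 and 111 CPM in ENR and 41.6, 26.8 and 14.2 CPM in Hyper libraries. The groups overlapped, since Hyper 1 lay above ENR 1. Its log2 difference was -1.28 ± 0.40 (adjusted p = 0.0287), and it rested on series C: without that series it was -0.48 (adjusted p = 0.309). Leaving out ENR 3 gave -0.77 (adjusted p = 0.160), Hyper 3 -0.98 (0.0884) and Hyper 2 -1.24 (0.0790), and DESeq2 gave -1.32 (adjusted p = 0.105). Junb, at 105, 89.5 and 138 CPM against 78.1, 43.0 and 56.7 CPM, did not overlap and had -0.89 ± 0.22 (adjusted p = 0.008). It passed 2-fold without Hyper 1 (-1.16) or ENR 2 (-1.03). Fosl2 had -0.85 ± 0.14 (adjusted p = 0.000963) and Jun -0.46 ± 0.16 (adjusted p = 0.0467), so that 6 of 9 members passed the adjusted p at any fold, beside 31% of all tested genes. Egr1 overlapped, at 241, 189 and 293 CPM against 268, 159 and 181 CPM (-0.24 ± 0.22, adjusted p = 0.439). The median of the 9 members was -0.85, against 0.0061 over all tested genes, and 0 of 9 had a positive value.

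The goblet markers themselves were lower in the goblet class of Hyper-organoids, 3 of 4 in every library, with summed levels of 9658 to 19367 CPM against 23050 to 31450 CPM. The goblet class also held 93.2 to 133 CPM of the enteroendocrine markers in Hyper and 24.1 to 32.4 CPM in ENR libraries, with 1 of 4 higher in every library and none of them at 0 in every library. Enterocyte markers summed to 21.6 to 45.2 CPM in Hyper against 185 to 332 CPM in ENR libraries (4 of 4 lower), enterocyte progenitor markers to 265 to 280 against 462 to 571 CPM (4 of 4 lower), revival stem markers to 20.2 to 91.7 against 0.784 to 6.82 CPM (3 of 4 higher) and general epithelial markers to 3160 to 3720 against 3838 to 4079 CPM (2 of 5 higher, 3 of 5 lower), whereas Paneth markers overlapped, at 3518 to 7832 against 3386 to 3933 CPM. Mean UMIs per goblet cell were 31034 to 38623 in Hyper and 27456 to 34724 in ENR libraries, and the median mitochondrial share 7.21% to 7.42% and 6.27% to 7.25%. Their part in the lower Fos and Fosb levels was not tested.

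In enteroendocrine cells, the hormone-producing class, Fos and Junb fell in Hyper-organoids. Fos measured 502, 345 and 385 CPM in ENR and 233, 165 and 74.3 CPM in Hyper libraries, and Junb 337, 259 and 347 CPM against 170, 120 and 146 CPM. Neither gene overlapped between the media. The log2 differences were -1.37 ± 0.36 for Fos (adjusted p = 0.0251) and -1.11 ± 0.26 for Junb (adjusted p = 0.0148). Of 9 members, 2 were called, both lower, beside 1.44% of all tested genes that fell and 5.96% that rose, 7.4% called in either direction.

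Both calls were close to the threshold. Fos lost its call with DESeq2 (adjusted p = 0.0753) and without ENR 1 (0.0931), Hyper 2 (0.0680), ENR 3 (0.0545) or Hyper 3 (0.0522), at log2 differences of -1.42 to -1.04. Junb lost its call without ENR 1 (0.0542), Hyper 2 (0.0625) or ENR 3 (0.0501), at -1.05 to -0.98. Ier2, at 401, 337 and 404 CPM against 271, 177 and 220 CPM, did not overlap and had -0.77 ± 0.18 (adjusted p = 0.0162). Fosb had 71.4, 57.2 and 83.3 CPM against 36, 52.2 and 26.0 CPM and -0.87 ± 0.24 (adjusted p = 0.0331), and it passed 2-fold without ENR 2 (-1.01) or Hyper 2 (-1.15). Egr1, at 544, 373 and 610 CPM against 629, 393 and 508 CPM, and Jun, at 555 to 887 against 713 to 882 CPM, overlapped between the media. The class held 61 to 79 cells in ENR and 86 to 107 in Hyper libraries, with mean UMIs per cell of 15962 to 18003 and 20148 to 27370. Enteroendocrine markers summed to 7665 to 21723 CPM in Hyper against 24189 to 38042 CPM in ENR libraries (1 of 4 higher, 1 of 4 lower in every library), goblet markers to 3050 to 7281 against 1905 to 3508 CPM (0 of 4 higher in every library, none at 0), Paneth markers to 841 to 5111 against 335 to 627 CPM (3 of 4 higher), revival stem markers to 94.2 to 213 against 16.3 to 42.9 CPM (3 of 4 higher), and the mitochondrial share was 7.98% to 8.11% against 5.33% to 6.62%. Their part in these differences was not tested.

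In enterocytes, the absorptive class, 0 of 10 members were called between Hyper- and ENR-organoids, beside 10.9% of all tested genes, 7.78% higher and 3.08% lower. There, 5 members had an unadjusted p under 0.05, and DESeq2 called 0. Both counts lack the share of all genes and are not read as a result about the members. At any fold 2 of 10 passed the adjusted p, beside 22% of all tested genes. Hyper 1 had 7 enterocytes and did not enter. Jund, a Jun gene that is expressed steadily in most cells, had 452, 443 and 386 CPM in ENR and 605 and 752 CPM in Hyper libraries (0.66 ± 0.13, adjusted p = 0.00532), and Fosl2 had 53.4, 56.1 and 50.2 CPM against 34.0 and 42.0 CPM (-0.53 ± 0.14, adjusted p = 0.0214). Neither gene overlapped between the media, and both stayed under 2-fold. Revival stem markers in this class summed to 86.3 to 89.8 CPM in Hyper against 0.766 to 2.11 CPM in ENR libraries (3 of 4 higher, Basp1 at 0), TA markers to 184 to 214 against 261 to 327 CPM (1 of 4 higher, 2 of 4 lower), Paneth markers to 6.15 to 8.22 against 46.2 to 62.5 CPM (2 of 4 lower) and enterocyte progenitor markers to 1023 to 1398 against 1637 to 1993 CPM (3 of 4 lower). Enterocyte markers overlapped, at 16845 to 28454 against 17449 to 19192 CPM, and so did the mitochondrial share, at 10.4% to 10.5% against 9.73% to 11.2%. General epithelial markers summed to 4697 to 7759 CPM in Hyper against 3699 to 4286 CPM in ENR libraries (4 of 5 higher). The part of the markers that moved was not tested.

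**Figure D2:**
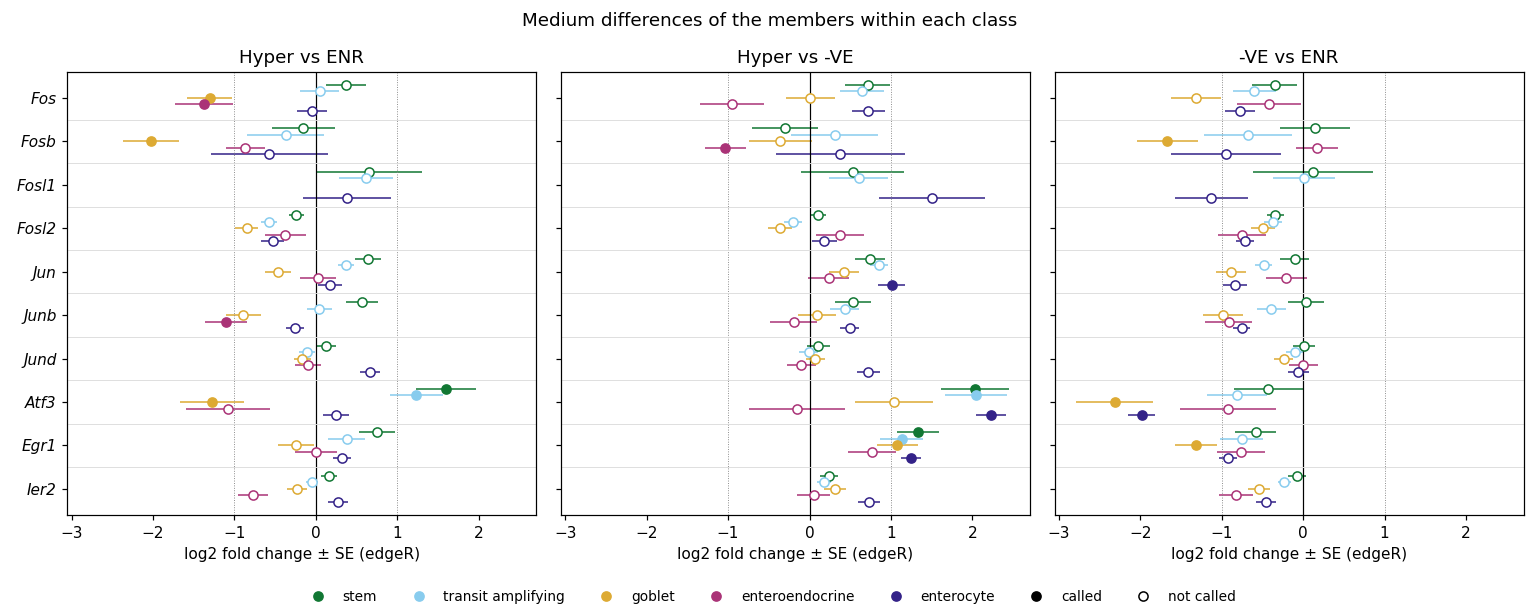
Log2 difference of each member between media, by cell class, from the edgeR fit (point, with the bar showing 1 standard error on each side). In the comparison of Hyper with ENR the Atf3 point lies at 1.60 in stem-labelled cells and at -1.28 in goblet cells. The goblet libraries of the 2 media overlapped for Atf3, and without series C its goblet value was -0.48.

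Whether the medium difference itself depended on the class was tested with an interaction term. The term, over 39 class sums of the 8 libraries with library, class and class by medium in the fit, passed an adjusted p of 0.05 for 10 of 10 members between Hyper and ENR, beside 34.9% of all tested genes. Fosl1 is 1 of them, although it had 0 UMIs in the goblet cells of the Hyper libraries and did not pass the count filter in the goblet and enteroendocrine fits. The goblet and enteroendocrine differences lay below the stem-labelled difference for the other 9. Goblet against stem-labelled cells passed for 8 of these 9, beside 11.4% of all genes: Atf3 by -2.83 ± 0.41 (adjusted p = 2.61e-05), Fosb by -1.98 ± 0.51 (0.00974), Fos by -1.78 ± 0.20 (6.97e-07), Junb by -1.47 ± 0.18 (2.74e-06), Jun by -1.11 and Egr1 by -1.0. Jund, at -0.32, did not pass (adjusted p = 0.105). The goblet value of Fosl1 is set by the fit and not given. Enteroendocrine against stem-labelled cells passed for 6 of these 9, beside 16% of all genes, led by Atf3 (-2.55 ± 0.43, adjusted p = 8.96e-05), Fos (-1.81 ± 0.22, 4.33e-07), Junb (-1.66 ± 0.19, 1.32e-07) and Ier2 (-0.95). TA against stem-labelled cells passed for 0 of 10, beside 4.91% of all genes.

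For the genes that led this test, the sign was the same within each culture series. Goblet minus stem-labelled, the Hyper to ENR difference was -1.62, -1.12 and -2.64 for Fos in series 2, 6 and C, -1.58, -1.52 and -3.39 for Fosb, -1.27, -1.09 and -2.02 for Junb, and -1.79, -1.90 and -4.93 for Atf3. Series C held the largest difference for each of these genes. Enteroendocrine minus stem-labelled it was -1.78, -1.07 and -2.77 for Fos, -1.84, -1.14 and -1.98 for Junb and -2.46, -0.54 and -4.72 for Atf3. Without series C, Atf3 in goblet against stem-labelled cells was -2.01 (adjusted p = 0.00163) and Fos -1.42 (0.000155). The class sums of a library share their preparation, which the library term takes up only as a common shift.

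**Figure D3:**
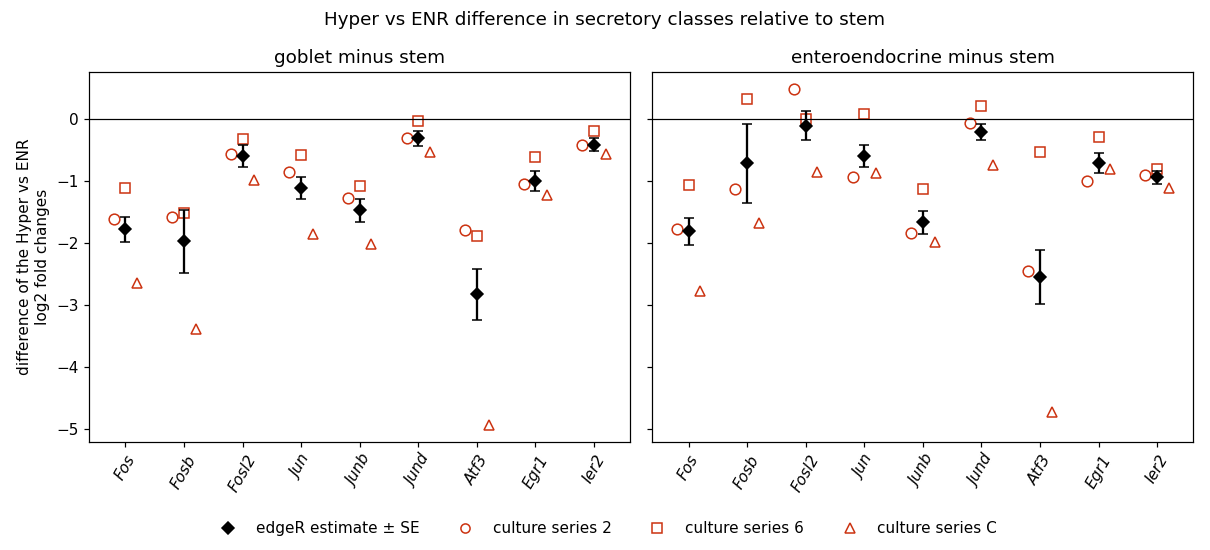
Difference between a secretory class and the stem-labelled class in the log2 ratio of Hyper to ENR, by member, with 1 open point for each of the culture series 2, 6 and C and a diamond for the edgeR estimate with its standard error. For Fos, Fosb, Junb, Atf3 and Egr1 the goblet points lie below 0 in all 3 series.

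The second question was what VPA and EPZ6438 add, for which Hyper- was compared with -VE-organoids. Atf3 and Egr1 rose in stem-labelled cells. Atf3 measured 23.2 and 11.5 CPM in the -VE libraries against 107, 42.1 and 62.4 CPM in the Hyper libraries, and Egr1 101 and 61.7 CPM against 276, 152 and 189 CPM. Every Hyper library lay above both -VE libraries, and -VE 1 lay above -VE 2 for both genes. The log2 differences were 2.03 ± 0.42 for Atf3 (adjusted p = 0.00379) and 1.33 ± 0.26 for Egr1 (adjusted p = 0.00263), and both were called in all 18 alternatives. Thus 2 of 10 members rose and none fell, beside 14.7% of all tested genes that rose and 1.76% that fell, 16.5% called in either direction. Jun, at 321 and 205 CPM against 490, 358 and 473 CPM, had 0.74 ± 0.18 (adjusted p = 0.00957), and Fos, at 174 and 108 CPM, had 0.72 ± 0.28 (adjusted p = 0.0603). Without -VE 1 both passed 2-fold, Jun at 1.08 (adjusted p = 0.00293) and Fos at 1.07 (0.0366), so that 4 members were called. Stem markers in this class summed to 268 to 923 CPM in Hyper against 1958 to 2664 CPM in -VE libraries (2 of 4 higher, 1 of 4 lower), enterocyte progenitor markers to 318 to 491 against 690.1 to 823 CPM (3 of 4 lower), Paneth markers to 9.52 to 32.7 against 67.8 to 85.7 CPM (3 of 4 lower) and revival stem markers to 33.0 to 127 against 4.26 to 9.78 CPM (4 of 4 higher). The mitochondrial share was 8.55% to 10.3% in Hyper and 7.63% to 7.96% in -VE libraries, with no overlap. Their part in these differences was not tested.

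In TA cells the same pair rose, from 19.1 and 9.65 CPM to 87.6, 38.2 and 50.1 CPM for Atf3 (2.04 ± 0.38, adjusted p = 0.00272) and from 103 and 66.8 CPM to 254, 138 and 164 CPM for Egr1 (1.13 ± 0.26, adjusted p = 0.00767). There, 2 of 10 members were called, beside 17.8% of all tested genes. The Egr1 call was lost without Hyper 1 (0.84, adjusted p = 0.00638) and without -VE 2 (0.84, adjusted p = 0.0724), and without -VE 1 Jun was called as well (1.06, adjusted p = 0.000278). In this class the summed stem markers were lower in Hyper libraries (283 to 952 against 1585 to 2293 CPM), though 2 of 4 were higher and 2 of 4 lower in every library. Enterocyte progenitor markers (287 to 407 against 715 to 933 CPM, 4 of 4), Paneth markers (8.40 to 32.1 against 64.4 to 85.3 CPM, 3 of 4) and enterocyte markers (32.1 to 105 against 108 to 250 CPM, 3 of 4, with 1 higher) were lower. Revival stem markers (21.7 to 108 against 9.72 to 13.6 CPM, 3 of 4) and the mitochondrial share (8.08% to 9.64% against 7.32% to 7.56%) were higher, and their part was not tested.

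In goblet cells Egr1 alone was called. It had 119 and 74.2 CPM in -VE and 268, 159 and 181 CPM in Hyper libraries, with no overlap, and rose by 1.08 ± 0.25 (adjusted p = 0.0109), 1 of 9 members beside 9.87% of all tested genes, 8.72% higher and 1.15% lower. The call was lost without Hyper 1 (0.83, adjusted p = 0.0215) and without -VE 2 (0.76, adjusted p = 0.136). Fos, at 156 and 107 CPM against 179, 150 and 64.9 CPM, and Fosb, at 34.3 and 15.1 CPM against 28.0, 18.3 and 7.64 CPM, overlapped between these media, with log2 differences of 0.01 ± 0.30 and -0.36 ± 0.39. Atf3 had 1.04 ± 0.48 (adjusted p = 0.152), and without series C it was called (1.34, adjusted p = 0.0250). Paneth markers in this class summed to 3518 to 7832 CPM in Hyper against 8828 to 12850 CPM in -VE libraries (1 of 4 higher, 2 of 4 lower), enterocyte markers to 21.6 to 45.2 against 108 to 109 CPM (3 of 4 lower) and enteroendocrine markers to 93.2 to 133 against 31.5 to 40.4 CPM (1 of 4 higher). Enterocyte progenitor markers (265 to 280 against 338 to 461 CPM, 4 of 4), stem markers (175 to 327 against 341 to 431 CPM, 1 of 4, with 1 higher), TA markers (1329 to 1788 against 1812 to 2158 CPM, 1 of 4) and general epithelial markers (3160 to 3720 against 3880 to 4038 CPM, 3 of 5) were also lower in Hyper libraries, and revival stem markers were higher (20.2 to 91.7 against 9.26 to 19.1 CPM, 3 of 4). The mitochondrial share was 7.21% to 7.42% against 6.04% to 6.11%, and their part in the Egr1 difference was not tested.

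In enteroendocrine cells Fosb was the 1 member called of 9, beside 4.01% of all tested genes, 0.489% lower and 3.52% higher. It had 92.1 and 65.4 CPM in -VE and 36, 52.2 and 26.0 CPM in Hyper libraries and fell by 1.03 ± 0.26 (adjusted p = 0.0382). The call was lost under a block for culture series (-0.99, adjusted p = 0.0772), without series C (-0.83, adjusted p = 0.117), and without ENR 1 (adjusted p = 0.0522), -VE 1 (0.174), Hyper 1 (0.0795), -VE 2 (0.0682) or Hyper 3 (0.101), at log2 differences of -1.27 to -0.79. Without -VE 1 Egr1 was called instead (1.34, adjusted p = 0.0418). Goblet markers in this class summed to 3050 to 7281 CPM in Hyper against 2555 to 3008 CPM in -VE libraries (1 of 4 higher). Revival stem markers summed to 94.2 to 213 against 25.1 to 42.6 CPM (3 of 4 higher). Lower sums were those of stem markers (106 to 216 against 262 to 783 CPM, 1 of 4, with 1 higher), enterocyte progenitor markers (103 to 129 against 134 to 254 CPM, 1 of 4) and general epithelial markers (3111 to 3684 against 3742 to 3799 CPM, 2 of 5, with 1 higher). The mitochondrial share was 7.98% to 8.11% against 6.09% to 6.53%. Their part was not tested.

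In enterocytes 3 members rose. Atf3 had 65.6 and 45.9 CPM in -VE and 243 and 280 CPM in Hyper libraries, Egr1 191 and 181 CPM against 478 and 402 CPM, and Jun 586 and 456 CPM against 923 and 1174 CPM. None of the 3 genes overlapped between the media. Atf3 rose by 2.23 ± 0.18 (adjusted p = 0.000258), Egr1 by 1.25 ± 0.13 (0.000539) and Jun by 1.01 ± 0.16 (0.00508). Of 10 members, 3 were called, beside 5.12% of all tested genes that rose and 6.87% called in either direction, and 7 of 10 passed the adjusted p at any fold, beside 13.8%. Atf3 and Egr1 were called in all 10 alternatives, whereas Jun dropped below 2-fold without -VE 2 (0.85), Hyper 3 (0.85) or series C (0.83). Without series C Fosb was called too (1.02, adjusted p = 0.0171). Fos had 353 and 313 CPM against 618 and 477 CPM (0.72 ± 0.20, adjusted p = 0.0424), and a block for culture series made it a call (1.01, adjusted p = 0.00172). Fosb spread most between the Hyper libraries, at 117 and 14.3 CPM. All 10 members had a positive value, with a median of 0.73 against -0.02 over all tested genes. The class's own enterocyte markers summed to 16845 to 28454 CPM in Hyper against 9123 to 10985 CPM in -VE libraries (1 of 4 higher in every library). TA markers summed to 184 to 214 against 388 to 412 CPM (3 of 4 lower), enterocyte progenitor markers to 1023 to 1398 against 1459 to 1821 CPM (3 of 4 lower), Paneth markers to 6.15 to 8.22 against 49.9 to 60.2 CPM (3 of 4 lower) and revival stem markers to 86.3 to 89.8 against 4.56 to 11.2 CPM (3 of 4 higher, Basp1 at 0). Goblet markers summed to 78.7 to 102 against 106 to 463 CPM (3 of 4 lower) and stem markers to 32.4 to 39.0 against 70.2 to 113 CPM (2 of 4 lower). The mitochondrial share was 10.4% to 10.5% against 8.79% to 8.81%, with no overlap. Their part in the higher member levels was not tested.

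The dependence of this difference on the class passed the interaction test for 7 of 10 members, beside 17.9% of all tested genes, and the exceptions were Fosb, Fosl1 and Egr1. Enteroendocrine against stem-labelled cells differed for Atf3 (-2.14), Fos (-1.74) and Junb (-0.73), beside 6.76% of all genes. Goblet against stem-labelled cells differed for Fos (-0.82), beside 3.06%, and enterocytes against stem-labelled cells for Jund (0.56) and Ier2 (0.51), beside 3.36%. Without Hyper 2 the members that passed the joint test were Fos, Jun, Atf3 and Ier2, beside 1620 of 14726 genes. Fewer members also passed without -VE 1, which leaves 1 -VE library.

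The third comparison, of -VE- with ENR-organoids, asked what the medium without VPA and EPZ6438 changed. Here members were called lower in goblet cells and enterocytes, and 0 of 10 were called in stem-labelled cells, beside 0.503% of all tested genes. The median log2 difference of the members was -0.09 in stem-labelled, -0.44 in TA and -0.75 in enteroendocrine cells, so lower values were not limited to the classes with calls. In stem-labelled cells 2 members had an unadjusted p under 0.05 and DESeq2 called 0, counts that lack the share of all genes. At any fold 0 of 10 passed the adjusted p in that class, beside 1.54% of all tested genes. Atf3 in stem-labelled cells had 28.8, 23.6 and 16.0 CPM in ENR and 23.2 and 11.5 CPM in -VE libraries, and Egr1 119, 118 and 130 CPM against 101 and 61.7 CPM (-0.58 ± 0.25, adjusted p = 0.272). In TA cells 0 of 10 were called, beside 1.03% of all tested genes (0.694% higher and 0.337% lower). DESeq2 called 0, and 4 had a p under 0.05 before adjustment, again without the share of all genes. At any fold 1 of 10 passed the adjusted p in TA cells, beside 3.14% of all tested genes. A block for culture series brought a call of Fosb there (-1.08, adjusted p = 0.011).

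In goblet cells Atf3 fell from 38.9, 56.1 and 111 CPM to 19.1 and 9.50 CPM, Fosb from 75.6, 71.1 and 80.1 CPM to 34.3 and 15.1 CPM, and Egr1 from 241, 189 and 293 CPM to 119 and 74.2 CPM. The media did not overlap for any of them. The log2 differences were -2.31 ± 0.48 (adjusted p = 0.032), -1.67 ± 0.37 (0.0427) and -1.32 ± 0.26 (0.0245). Thus 3 of 9 members fell and none rose, beside 0.606% of all tested genes that fell and 0.529% that rose, 1.14% called in either direction. Fos went from 346, 324 and 308 CPM to 156 and 107 CPM, at -1.32 ± 0.31 with an adjusted p of 0.0511, just past the threshold. A block for culture series made it a call (-1.56, adjusted p = 0.00721), as did leaving out series C (-1.36, adjusted p = 0.0167), Hyper 1 (-1.33, adjusted p = 0.0189) or Hyper 3 (-1.32, adjusted p = 0.00351). All 9 members had a negative value, with a median of -0.98 against 0.02 over all tested genes.

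These goblet calls depended on single libraries. Without -VE 2 none was called: Atf3 had -1.83 (adjusted p = 0.400), Fosb -1.14 (0.440) and Egr1 -1.01 (0.313). Without ENR 3 none was called either, at adjusted p of 0.0923, 0.119 and 0.0840, and without series C the 3 had 0.0528, 0.0689 and 0.104. Without ENR 1 Fosb (0.117) and Egr1 (0.0799) were lost, Fosb was also lost without ENR 2 (0.0694), without Hyper 2 (0.0563) and with DESeq2 (0.124), and without -VE 1 Jun was called too (-1.16, adjusted p = 0.0241). Goblet markers in this class summed to 15996 to 20225 CPM in -VE against 23050 to 31450 CPM in ENR libraries (2 of 4 lower in every library), Paneth markers to 8828 to 12850 against 3386 to 3933 CPM (2 of 4 higher) and enterocyte markers to 108 to 109 against 185 to 332 CPM (4 of 4 lower). Enterocyte progenitor markers were lower (338 to 461 against 462 to 571 CPM, 3 of 4) and revival stem markers higher (9.26 to 19.1 against 0.784 to 6.82 CPM, 2 of 4), and the mitochondrial share was 6.04% to 6.11% against 6.27% to 7.25%. Their part was not tested.

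In enterocytes Atf3 went from 231, 197 and 230 CPM in ENR to 65.6 and 45.9 CPM in -VE libraries and fell by 1.98 ± 0.17 (adjusted p = 0.000676), in all 10 alternatives. It was the 1 member called of 10, beside 1.9% of all tested genes that fell and 3.34% called in either direction. At any fold, 7 of 10 passed the adjusted p, beside 8.09%. Egr1 had 360, 335 and 363 CPM against 191 and 181 CPM (-0.92 ± 0.11, adjusted p = 0.00213), Jun 998, 945 and 851 CPM against 586 and 456 CPM (-0.84 ± 0.15, 0.00978), and Junb 273, 256 and 262 CPM against 164 and 149 CPM (-0.75 ± 0.11, 0.00338). None of these overlapped, and all stayed under 2-fold, except Jun without -VE 1 (-1.06, adjusted p = 0.00981). Fosl2, Fos and Ier2 passed as well, at -0.71, -0.77 and -0.46. Jund, at 452, 443 and 386 CPM against 423 and 397 CPM, overlapped (-0.06 ± 0.13). A block for culture series added Fosb (-1.45, adjusted p = 0.000876), as did leaving out series C (-1.40, adjusted p = 0.00194), which made 2 members. All 10 members had a negative value, with a median of -0.81 against 0.03 over all tested genes. The class's own enterocyte markers moved with the members, at a sum of 9123 to 10985 CPM in -VE against 17449 to 19192 CPM in ENR libraries (3 of 4 lower in every library). TA markers summed to 388 to 412 against 261 to 327 CPM (2 of 4 higher) and revival stem markers to 4.56 to 11.2 against 0.766 to 2.11 CPM (2 of 4 higher, Basp1 at 0). General epithelial markers summed to 4574 to 5421 against 3699 to 4286 CPM (3 of 5 higher). The mitochondrial share was 8.79% to 8.81% in -VE and 9.73% to 11.2% in ENR libraries. Their part in the lower member levels was not tested.

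In enteroendocrine cells 0 of 9 were called between -VE and ENR, beside 0.19% of all tested genes. An unadjusted p under 0.05 was held by 4, and DESeq2 called 0, counts that lack the share of all genes. At any fold 0 of 9 passed the adjusted p, beside 0.199% of all tested genes. Without -VE 1 Junb was called (-1.66, adjusted p = 0.0220). Paneth cells and enterocyte progenitors were too few in Hyper-organoids for a fit and are given as levels. In Paneth cells, Atf3 stood at 141 ± 13.0 CPM in ENR (n = 3) and 30.1 ± 1.59 CPM in -VE libraries (n = 2), Fos at 463 ± 126 against 217 ± 58.8 CPM, and Egr1 at 358 ± 24.8 against 171 ± 27.5 CPM. In enterocyte progenitors Fos stood at 289 ± 75.0 against 150 ± 24.1 CPM and Atf3 at 40.0 ± 11.7 against 15.4 ± 5.59 CPM. All of these were lower in -VE libraries, and none was tested. The dependence on class passed the interaction test for 5 of 10 members (Fos, Jun, Junb, Atf3 and Ier2), beside 9.88% of all genes, with enterocytes below stem-labelled cells for Atf3 (-1.50), Junb (-0.77), Jun (-0.75) and Ier2 (-0.42), beside 6.24%. Leaving out ENR 1 left 3 of the 5 past the joint test, beside 645 of 14109 genes. Fewer members also passed it without -VE 1 or -VE 2, either of which leaves 1 -VE library.

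Sums over all kept cells also depend on the shares of the classes, whose part was not tested. Between Hyper and ENR 0 of 10 members were called, beside 22.9% of all tested genes (18.2% higher and 4.75% lower). There, 1 member had an unadjusted p under 0.05 and DESeq2 called 0, counts that lack the share of all genes. At any fold 1 of 10 passed the adjusted p, beside 56.8% of all tested genes. Fosb, at 55.6, 55.0 and 20.2 CPM in ENR and 27.7, 24.6 and 8.45 CPM in Hyper libraries, overlapped over the groups but was lower in Hyper within every series. A block for culture series made it a call (-1.14, adjusted p = 9.79e-05), as did leaving out ENR 3 (-1.43, adjusted p = 0.0266) or series C (-1.07, adjusted p = 0.00252). Between Hyper and -VE, Atf3 (1.76 ± 0.37, adjusted p = 0.00554) and Egr1 (1.07 ± 0.26, adjusted p = 0.0103) rose, 2 of 10 beside 18.6% of all tested genes (16.1% higher and 2.51% lower). The Egr1 call was lost without Hyper 1 (0.81, adjusted p = 0.0112) and without -VE 2 (0.81, adjusted p = 0.0823). Between -VE and ENR, Atf3 went from 53.2, 47.2 and 57.8 CPM to 24.9 and 12.7 CPM (-1.49 ± 0.37, adjusted p = 0.0463), 1 of 10 beside 2.55% of all tested genes (1.2% lower and 1.35% higher). Without any 1 of the ENR or -VE libraries, or Hyper 3, that call was lost, at adjusted p of 0.0507 to 0.251. With the block, Fosb (-1.35, adjusted p = 0.00395) and Fos (-1.03, adjusted p = 0.00912) were called with it, which made 3.

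Other genes of the AP-1 family and of its pathway were taken from fixed lists, and each count stands beside the share of all tested genes called. Of 11 further genes of the family (Jdp2, the Batf, Maf and ATF genes), 10 were tested over all kept cells, and 2 rose and 1 fell between Hyper and ENR, with a median of -0.14, beside 18.2% of all tested genes that rose and 4.75% that fell. At any fold 7 of the 10 passed the adjusted p, beside 56.8%. Batf3 and Jdp2 rose (5.34 ± 0.41, adjusted p = 2.20e-05, and 3.15 ± 0.45, adjusted p = 0.000547) and Batf2 fell (-1.69 ± 0.55, adjusted p = 0.0295). The Batf2 call was over all kept cells only: within classes it had 0.07 in stem-labelled cells (adjusted p = 0.957), -0.50 in TA cells (0.591) and -0.83 in enterocytes (0.364). Their levels were low: Jdp2, a repressor that pairs with Jun proteins, had 0.538, 0.317 and 0.299 CPM in ENR, 2.16 and 0.980 CPM in -VE and 5.15, 2.19 and 2.91 CPM in Hyper libraries. Jdp2 also rose between -VE and ENR (2.02 ± 0.47, adjusted p = 0.0408), 1 of 10 beside 1.35%, and Maf rose between Hyper and -VE (1.63 ± 0.29, adjusted p = 0.00237), 1 of 2 that rose, beside 16.1%. The -VE against ENR call of Jdp2 was made in no single class, at 1.09 in stem-labelled cells (adjusted p = 0.448), 1.90 in TA cells (0.0870) and 2.69 in enterocytes (0.0776).

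Of 37 further immediate early genes, 4 rose and 2 fell between Hyper and ENR over all kept cells (median 0.04), beside 18.2% of all tested genes that rose and 4.75% that fell. Between Hyper and -VE 8 rose (median 0.37), beside 16.1%, and between -VE and ENR 1 fell (median -0.33), beside 1.2%. By class, 10 of 36 rose and 0 fell between Hyper and ENR in stem-labelled cells (median 0.59), beside 15.2% and 2.8% of all tested genes. In goblet cells 1 of 33 rose and 5 fell (median -0.34), beside 10.7% and 2.64%, and in enteroendocrine cells 1 of 35 rose and 8 fell (median -0.31), beside 5.96% and 1.44%. No test of the list was made. Zfp36, which encodes a protein that destabilises AU-rich mRNAs, had 101, 110 and 78.9 CPM in ENR, 53.9 and 40.3 CPM in -VE and 55.4, 37.1 and 39.7 CPM in Hyper libraries. It fell between Hyper and ENR (-1.13 ± 0.19, adjusted p = 0.00122) and between -VE and ENR (-1.04 ± 0.21, adjusted p = 0.0281). Plk3 fell between Hyper and ENR (-1.09 ± 0.14, adjusted p = 0.000281). These are values over all kept cells. Within classes Plk3 had -1.05 in goblet cells (adjusted p = 0.0269) and -0.61 in enterocytes (0.0129), but 0.13 in stem-labelled (0.639), -0.34 in TA (0.161) and 0.23 in enteroendocrine cells (0.633). Zfp36 had -1.70 in enteroendocrine (adjusted p = 0.00405) and -1.20 in goblet cells (0.00502), -0.85 in enterocytes (0.0272) and -0.65 in TA cells (0.0114), but -0.27 in stem-labelled cells (0.323). Gadd45g, a growth arrest and stress gene, rose from 14.6, 14.4 and 18.3 CPM in ENR to 94.3, 55.8 and 55.4 CPM in Hyper libraries (2.12 ± 0.23, adjusted p = 0.000119), and Ctgf rose by 2.37 ± 0.20 (adjusted p = 3.43e-05) from levels under 1 CPM. Within classes Gadd45g rose by 2.72 in stem-labelled cells (adjusted p = 8.91e-05), 2.58 in TA cells (3.86e-05) and 1.74 in goblet cells (7.50e-05), and had 0.85 in enterocytes (0.0278) and 0.15 in enteroendocrine cells (0.640). Ctgf rose by 2.06 in stem-labelled (adjusted p = 0.00036) and 1.34 in TA cells (0.001) and had 1.61 in enterocytes (0.139). Arc and Egr3 rose between Hyper and -VE, by 2.13 ± 0.47 (adjusted p = 0.00709) and 2.11 ± 0.52 (adjusted p = 0.0116).

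Genes that act on AP-1 from above came next. Of 22 genes for MAP kinases, their kinases and the serum response factor complex, 3 rose between Hyper and ENR and 3 between Hyper and -VE, with medians of -0.13 and -0.13, beside 18.2% and 16.1% of all tested genes, and 1 rose between -VE and ENR, beside 1.35%. At any fold 16 of 22 passed the adjusted p between Hyper and ENR and 15 of 22 between Hyper and -VE, beside 56.8% and 47.6%. Mapk12 (p38 gamma) had 0.0828, 0.0418 and 0.0358 CPM in ENR, 0.0770 and 0.158 CPM in -VE and 1.96, 2.33 and 2.71 CPM in Hyper libraries, with a log2 difference of 5.42 ± 0.38 from ENR (adjusted p = 1.47e-05) and 4.26 ± 0.40 from -VE (adjusted p = 0.000141). Elk3, a cofactor of serum response factor, had 0.134 to 0.227 CPM in ENR, 0.385 and 0.621 CPM in -VE and 6.54 to 6.98 CPM in Hyper libraries, and was called in all 3 comparisons (5.15 ± 0.25, 3.74 ± 0.27 and 1.42 ± 0.27; adjusted p = 3.17e-06, 4.81e-05 and 0.0218). Within classes the last of these was called in none, at -0.01 in stem-labelled (adjusted p = 1), 1.22 in TA (0.0792), 1.41 in goblet (0.166) and 0.92 in enteroendocrine cells (0.614). Both genes were near the floor in ENR-organoids, so that their log2 differences depend on few counts there.

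Of 18 candidate target genes of AP-1, listed from general knowledge, 16 were tested, and 8 rose and 0 fell between Hyper and ENR (median 1.08), beside 18.2% of all tested genes that rose. Between Hyper and -VE 2 rose (median 0.43), beside 16.1%, and between -VE and ENR 2 rose (median 0.55), beside 1.35%. In stem-labelled cells of Hyper-organoids 7 of 15 rose against ENR and 7 of 15 against -VE, beside 15.2% and 14.7%. Timp1, an inhibitor of matrix metalloproteinases, rose by 4.79 ± 0.27 over ENR (adjusted p = 5.23e-06), by 2.16 ± 0.25 over -VE (0.000339) and by 2.63 ± 0.29 between -VE and ENR (0.00365), from 0.0334 to 0.0518 CPM in ENR to 1.11 to 1.35 CPM in Hyper libraries. Il33 rose by 3.93 ± 0.54 over ENR (adjusted p = 0.000451) and by 2.81 ± 0.57 over -VE (0.00459). Mmp7, a Paneth cell metalloproteinase, rose between -VE and ENR (1.27 ± 0.13, adjusted p = 0.00263), from 21.3 to 22.7 CPM to 52.0 and 54.3 CPM over all kept cells. By class it was called in goblet cells (1.06 ± 0.14, adjusted p = 0.00501) and not in stem-labelled cells (1.27, adjusted p = 0.114), TA cells (1.05, 0.292), enteroendocrine cells (1.64, 0.0952) or enterocytes (-0.58, 0.833). Whether AP-1 acts on these genes here was not tested.

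Of 15 heat shock and chaperone genes, often read as a mark of stress, 1 rose and 0 fell between Hyper and ENR over all kept cells, with a median of -0.18, beside 18.2% of all tested genes that rose and 4.75% that fell. The 1 that rose was Hspb1, from 0.362, 0.200 and 0.287 CPM to 9.28, 8.29 and 14.4 CPM (5.24 ± 0.30, adjusted p = 6.04e-06), and it rose against -VE too (4.74 ± 0.34, adjusted p = 5.05e-05), where the median was -0.19. Between -VE and ENR 0 of 15 were called, with a median of 0.05. Summed over the list, the levels were 9669 to 9908 CPM in ENR, 9606 to 10293 CPM in -VE and 9271 to 9648 CPM in Hyper libraries.

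The genes with the pattern most like a member's were named by the correlation of log2(CPM + 1) over 45 class and library sums of the organoids, which share libraries and depth. For Fos these were Zfp36 (r = 0.880), Atf3 (0.828) and Fosb (0.800). For Atf3 they were Dusp1 (0.892), Egr1 (0.862) and Jun (0.860), for Junb Ppp1r15a (0.922), Pnrc1 (0.906) and Coq10b (0.896), and for Jun Junb (0.885), Klf6 (0.868) and Hif1a (0.860). Members thus stood among the nearest genes of Fos, Atf3 and Jun. The enterocyte genes Enpep (0.891) and Apoc3 (0.890) were among the nearest of Fosl2, and Jund was nearest to Cpeb2 (0.944), Kdm7a (0.944) and Bsdc1 (0.943). Trib1 (0.876) and Atf3 were among the nearest of Egr1. Fosb was nearest to Fos, Cyp2c68 (0.766) and Dusp1 (0.763), and Ier2 to Junb (0.755), Ppm1b (0.745) and Errfi1 (0.744). For Fosl1 the nearest gene was Klf11 (0.637).

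In colonic crypts no member differed by 2-fold between the normal and the DSS library over all kept cells. With 1 library of each there is no replicate check and no test, and the intervals cover counting error only. Fos stood at 2047 CPM (95% exact Poisson interval 2027 to 2067) in normal and 2019 CPM (2003 to 2034) in DSS crypts, and Jun at 1498 CPM (1481 to 1515) and 1464 CPM (1451 to 1477). Atf3 stood at 756 CPM (744 to 769) and 829 CPM (819 to 839), Ier2 at 636 CPM (625 to 647) and 752 CPM (742 to 761), and Jund at 2549 CPM (2527 to 2572) and 2138 CPM (2122 to 2154). The intervals of Fos overlapped, and those of Jun, Atf3, Ier2 and Jund did not overlap. The log2 ratios of DSS to normal ran from -0.33 for Fosl1 to 0.24 for Ier2. None of the 10 members passed 2-fold, beside 4.66% of the 12074 genes compared, 3.13% higher and 1.53% lower, and the median of all genes was 0.03. Leaving out cells with a Ptprc UMI, or thinning each cell to 5000 UMIs, left the count at 0. Within the 7 clusters of the deposited annotation that both libraries shared, Jund was lower in DSS in 7 of 7, Egr1 and Junb in 6 of 7, and the other members in 2 to 4 of 7. Fosl1 had no UMI in either library in cluster 11. Within these clusters 2 members passed 2-fold, Atf3 in cluster 11 (log2 ratio 1.51, 86.4 CPM in DSS and 29.6 CPM in normal) and Fosl1 in cluster 5 (-1.32, 11.01 and 28.96 CPM). No share of all genes was computed within clusters, for direction or for 2-fold, and the cluster ratios have no interval. They are therefore not read as a change of the members. The libraries also differed in makeup: leukocyte markers summed to 238 CPM in normal and 3333 CPM in DSS crypts, Paneth markers to 815 and 5.53 CPM, and heat shock and chaperone genes to 13072 and 8083 CPM. Their part in the levels of the members was not tested.

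Each of the 10 members was higher in both crypt libraries than in any of the 8 organoid libraries, by unequal amounts. How many of all genes separated in this way was not counted, so the count says nothing particular about the members. On the same scale, UMIs over all UMIs of the kept cells, Fos ranged from 123 to 305 CPM over the organoid libraries and Atf3 from 12.2 to 98.4 CPM. The gap was smaller for Egr1, at 72.9 to 285 CPM against 553 and 551 CPM in normal and DSS crypts, and for Ier2, at 195 to 280 CPM. Tissue, handling and cell makeup differ between crypts and organoids and cannot be told apart from one another here.

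**Figure D4:**
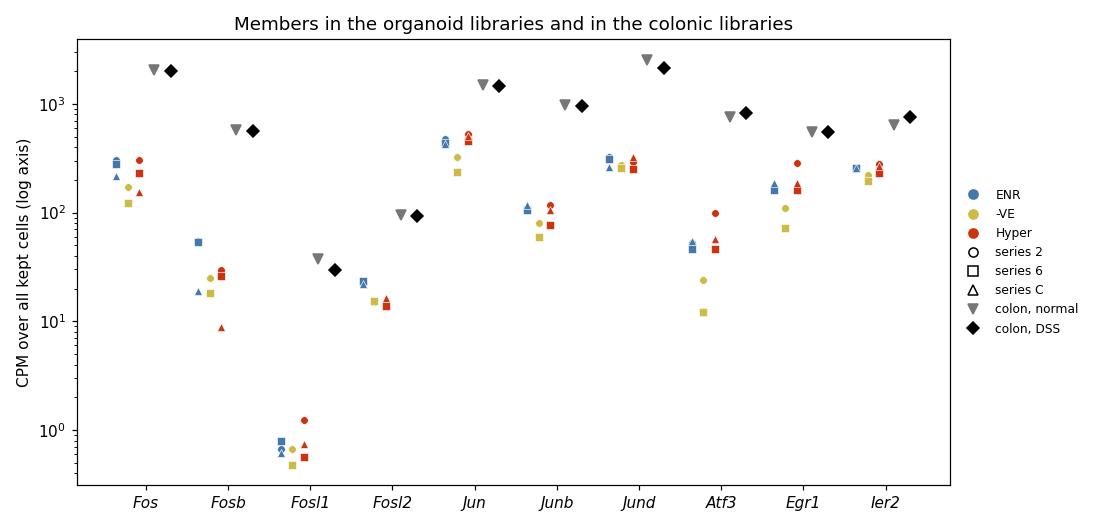
Level of each member over all kept cells (CPM, log axis) in the 8 organoid libraries, by medium, and in the normal and DSS colonic crypt libraries. Both colonic points lie close together for each member, and for Fos they lie at 2047 and 2019 CPM against at most 305 CPM in the organoids.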

How the data were processed

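Reads were mapped and counted by the authors in Cell Ranger, version 3.0.0 in the submitters' processing notes and 3.1.0 in the matrix header, against mm10, and used Seurat 3.1.4. The deposited values are raw UMI counts per gene and cell, not normalized. A deposited table of 25204 kept cells with class labels was compared with the library matrices over 252040 entries of the members, of which 0 differed. The stated limits on kept cells (1500 genes, 25% mitochondrial reads) were not those met in the files. No doublet caller was run here, and doublets were not removed. Columns of per-sample values without a sample numbered 0.

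UMIs were summed per library and class, since cells of a library are not replicates, and a class entered with at least 20 cells. The 8 organoid libraries were fitted together by medium with edgeR 4.0.16 (R 4.3.3; TMM, filterByExpr, quasi-likelihood test). P-values were adjusted over all genes tested, and calls needed an adjusted p under 0.05 and at least 2-fold. Counts of members at an unadjusted p or called by DESeq2 are given without the share of all genes, so they are not read against it. CPM of the members and of named list genes in the medium comparisons is TMM-adjusted. Sums of markers and of heat shock genes, and levels in Paneth cells and enterocyte progenitors, are not. Those, and CPM elsewhere, are relative to all UMIs of the class and library, or of the library. The class by medium test used library, class and class by medium terms. DESeq2 1.42.0, limma 3.58.1 (on mean CPM of cells), other filters, library size alone, thinning to 10000 UMIs, stricter cells (at least 1500 genes, at most 10% mitochondrial UMIs), a block for culture series and left-out libraries were tried. Omitting series C was chosen after seeing the data. The scripts were tested on simulated counts.

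Nothing says that libraries came from separate animals, so p-values measure the spread between libraries. Whether the culture series, an assumed reading of the codes in the titles, pairs the libraries was checked by correlating deviations from the group means over 16037 genes. Between Hyper and ENR, r was 0.268, 0.217 and 0.538 in series 2, 6 and C, each above the 0.1 at which the series counts as a pairing. Across series, Hyper 1 with ENR 2 also passed that limit, at 0.192, and Hyper 2 with ENR 1 stood at 0.0859. The remaining pairs across series ran from -0.412 to -0.201. The check therefore does not clearly separate series 2 from series 6. The fits reported are without this pairing, and the block for culture series is given where it changes a call. Within series 2 and 6, r was 0.206 and 0.134 between Hyper and -VE and 0.176 and -0.0102 between -VE and ENR. The members and lists were chosen with earlier results of these data known. All members are named, and of each further list the 2 called genes with the largest rise and the 2 with the largest fall per comparison over all kept cells. For likeness, the 3 genes of highest r with a mean of at least 10 CPM, over sums of at least 50 cells, were taken. Promoters and gene spans come from RefSeq (GRCm38.p6) and GENCODE M21. Promoters were found for 7 of the 10 members. Some of the genes nearest in pattern to a member are not reported here.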

Additional observations from a re-analysis of the deposited data

Results flagged for a closer look

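The difference between media varied with the cell class for 22 pairs of member and comparison, by the joint interaction test (edgeR, adjusted over all genes tested). No medium had 4 or more libraries, so no library was tested for standing apart. Between Hyper and ENR all 10 members passed, beside 34.9% of all tested genes. The adjusted p was 1.31e-08 for Fos, 7.43e-08 for Junb, 1.67e-07 for Ier2, 2.73e-06 for Atf3, 0.000131 for Jun, 0.000132 for Egr1, 0.000433 for Jund, 0.0215 for Fosl1, 0.0231 for Fosb and 0.0248 for Fosl2. The value of Fosl1 includes goblet cells, where it had 0 UMIs in the Hyper libraries. For Fos, Fosb, Junb and Atf3 the goblet value lay below the stem-labelled value in each culture series.

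Between Hyper and -VE the adjusted p was 4.23e-06 for Fos, 0.00214 for Ier2, 0.00315 for Jund, 0.00323 for Atf3, 0.0231 for Jun, 0.0270 for Junb and 0.0332 for Fosl2. Between -VE and ENR it was 0.000936 for Ier2, 0.00326 for Junb, 0.0110 for Jun, 0.0223 for Atf3 and 0.0247 for Fos. Of all tested genes, 17.9% passed between Hyper and -VE and 9.88% between -VE and ENR. These last 2 comparisons rest on 2 -VE libraries, and fewer members passed without -VE 1 in the former or -VE 2 in the latter.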

How the results depend on the processing

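No called value changed sign. Values that were not called could do so, such as Atf3 over all kept cells between Hyper and ENR (0.27, and -0.10 without Hyper 1). Every alternative kept 1 call in stem-labelled cells between Hyper and ENR (Atf3), and there the count of calls without each library in turn stayed at 1, while between Hyper and -VE it ran from 2 to 4 and between -VE and ENR it stayed at 0. In the same order of comparisons these counts ran from 0 to 1, 1 to 2 and 0 to 1 over all kept cells, 0 to 1, 1 to 3 and 0 to 0 in TA cells, 1 to 4, 0 to 1 and 0 to 4 in goblet cells, 0 to 3, 0 to 1 and 0 to 1 in enteroendocrine cells, and 0 to 0, 2 to 3 and 1 to 2 in enterocytes. The joint class by medium test passed for 7 to 10, 1 to 8 and 1 to 5 members, and for 10, 8 and 6 with at least 50 cells a class and 10, 7 and 6 without series C. Over all tested genes the joint test passed for 4671, 2522 and 1491 of 14858 with at least 50 cells a class. Without series C it passed for 3405, 1922 and 1125 of 14606. The counts of members without each library in turn have no such share beside them and are not read against one. Where a medium was left with 1 library, it was assumed to vary like the others.

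The culture series as a replicate block changed the count of calls over all kept cells from 0 to 1 between Hyper and ENR (Fosb) and from 1 to 3 between -VE and ENR, from 0 to 1 in TA cells and from 1 to 2 in enterocytes between -VE and ENR, and from 1 to 0 in enteroendocrine cells between Hyper and -VE. It also added Fos in goblet cells (-VE against ENR) and in enterocytes (Hyper against -VE) and changed no other call.

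Without series C the counts became 1 over all kept cells (Hyper against ENR), 2, 2 and 1 in goblet cells (Hyper against ENR, Hyper against -VE and -VE against ENR; the first lost Atf3), 0 and 0 in enteroendocrine cells (Hyper against ENR and -VE) and 2 in enterocytes (-VE against ENR). Over all kept cells between -VE and ENR the count stayed at 1, but Atf3 (-1.43, adjusted p = 0.120) was replaced by Fosb (-1.31, adjusted p = 0.0228). Thinning to 10000 UMIs gave 1 call over all kept cells between Hyper and ENR (Fosb), stricter cells gave 0 between -VE and ENR, and DESeq2 gave 1 in enteroendocrine cells between Hyper and ENR. DESeq2 also called Fosl1 lower in goblet cells of Hyper- than ENR-organoids, from few UMIs. The cause of these changes was not tested. Library size alone moved the median of all genes by 0.12 and 0.15 (log2) over all kept cells in the Hyper comparisons. It changed no call of a member over all kept cells or in stem-labelled cells. It was run only there, as were thinning, stricter cells, limma, the other filters on counts and fits of only 2 media. The 3 against 2 libraries, and the 61 to 107 enteroendocrine cells and 21 to 340 enterocytes in each library fitted, limit what could be called.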
